A study of Mus musculus with 18 samples.

Results

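Binding of the cohesin subunit RAD21 and of the cohesin loader NIPBL is described here at 6 mouse genes that govern the passage from G1 into S phase: Myc, Ccnd2, Ccnd3, Cdk6, Cdkn1b and Cdkn2a. The members were given by name, and the peaks counted for each were those within 5 kb of its start, in its gene body or within 100 kb of it. They are 6 of the 22342 protein-coding genes annotated on the 19 autosomes and X, and the 14 peak lists hold between 82 and 164 peaks each in their neighbourhoods. The series has 18 samples of a pro-B cell line transformed by v-Abl, of which 14 are immunoprecipitated libraries with a peak list and 4 are inputs that were not used. Every group carried a JH deletion, expressed dCas9 (Cas9 that is unable to cut but still binds where a guide RNA directs it), carried Emu-Bcl2 and lacked RAG2, and all had been kept in 3 uM STI-571 for 4 days. The block groups, with 2 RAD21 libraries and 2 NIPBL libraries, also expressed Sg1-sgRNA, and their control groups, of 2 libraries each, did not. The RAD21 group labelled Ig2b-del/del had 3 libraries and was set against 3 libraries labelled Ig2b wild type. Both changes concern the immunoglobulin heavy chain locus, which lies on none of the members' chromosomes. There was no library of untreated, cycling cells, so arrest is shared by all groups and its effect cannot be read from these data. The labels do not say whether replicates are separate cultures or clones, and each p-value therefore measures only the spread between these libraries.

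The v-Abl kinase keeps pro-B cells dividing through growth factor pathways that raise Myc and the D-type cyclins. STI-571 (imatinib) blocks the kinase and the cells stop in G1, where the Bcl2 transgene keeps them alive. Cyclins D2 and D3, the products of Ccnd2 and Ccnd3, activate Cdk6 and its relative Cdk4, and these kinases phosphorylate the retinoblastoma protein and release E2F factors. Cdkn1b encodes p27Kip1, an inhibitor of the cyclin-dependent kinases that accumulates in resting cells. Cdkn2a encodes the D-cyclin kinase inhibitor p16Ink4a and, from a separate upstream start, the p53 activator Arf. Cohesin is a ring that extrudes chromatin loops and is halted where CTCF is bound, whereas NIPBL loads cohesin and is commonly found at active promoters and enhancers.

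The number of peaks per list was 44783 to 82776 for RAD21, covering 11.57 to 34.389 Mb, and 63153 to 123573 for NIPBL, covering 20.329 to 29.796 Mb. Read depth was unknown, so coverage here is the number of base pairs under called peaks, not an amount of bound protein. The 2 RAD21 libraries numbered 1 of the block and control groups shared 1 style of peak names and those numbered 2 another, and coverage was wider in control replicate 2 than in control replicate 1 at every member. Of the 9 pro-B markers checked at their starts, 8 (all but Il7r) had a NIPBL peak in all 4 lists, while the T cell genes had it for 2 of 5, the myeloid genes for 3 of 5 and the erythroid genes for 2 of 4, with Hbb-b1 and Gata1 among those without.

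The RAD21 regions called in all 10 RAD21 lists held 17 CTCF cores, and 8 of them are given as examples. All 17 lie in such regions, so those shown are no more constant than the others. The single cores of Myc, Ccnd2, Cdk6 and Cdkn2a are all shown. Of the 8 cores at Ccnd3 and the 5 at Cdkn1b, 1 and 3 are shown, picked after the sequences were seen. The core searched was CCANNAGNNGGC on either strand, and capitals mark it within 24 flanking bases on each side. They were read from mm9 (NCBIM37), each on the strand that carries the core.
Myc, chr15:61814962-61815021, plus strand, core at -1960 bp from the start: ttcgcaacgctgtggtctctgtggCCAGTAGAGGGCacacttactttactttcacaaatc
Ccnd2, chr6:127097864-127097923, plus strand, core at 3178 bp: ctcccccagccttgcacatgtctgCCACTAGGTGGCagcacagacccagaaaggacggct
Cdk6, chr5:3342590-3342649, minus strand, core at -1279 bp: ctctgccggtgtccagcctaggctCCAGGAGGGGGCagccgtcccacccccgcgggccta
Ccnd3, chr17:47619531-47619590, minus strand, core at -22445 bp: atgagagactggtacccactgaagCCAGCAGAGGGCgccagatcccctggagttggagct
Cdkn1b, chr6:134823256-134823315, plus strand, core at -47139 bp: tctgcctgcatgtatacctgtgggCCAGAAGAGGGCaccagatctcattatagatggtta
Cdkn1b, chr6:134947137-134947196, plus strand, core at 76742 bp: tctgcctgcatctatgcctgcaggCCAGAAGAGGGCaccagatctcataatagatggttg
Cdkn1b, chr6:134897572-134897631, minus strand, core at 27177 bp: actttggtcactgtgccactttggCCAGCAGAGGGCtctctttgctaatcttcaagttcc
Cdkn2a, chr4:88879314-88879373, minus strand, core at 61185 bp: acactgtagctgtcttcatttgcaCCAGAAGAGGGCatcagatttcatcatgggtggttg
Positive distances run along the gene from its start and negative ones lie before it. The core in Ccnd2 is intronic, and the cores shown for Myc, Cdk6 and Cdkn2a and those at 27177 and 76742 bp of Cdkn1b lie outside annotated genes, while that at -47139 bp of Cdkn1b lies in an intron of Gpr19.

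The 250 bases before the starts of Cdk6 and Cdkn1b are shown because NIPBL covered both starts in all 4 lists, while a RAD21 peak lay over the start in 8 of 10 lists at Cdk6 and in 4 of 10 at Cdkn1b. Capitals mark the E-box CACGTG, the palindrome bound by Myc and Max, which was searched as written since it reads the same on both strands.
Cdk6, chr5:3343643-3343892, plus strand: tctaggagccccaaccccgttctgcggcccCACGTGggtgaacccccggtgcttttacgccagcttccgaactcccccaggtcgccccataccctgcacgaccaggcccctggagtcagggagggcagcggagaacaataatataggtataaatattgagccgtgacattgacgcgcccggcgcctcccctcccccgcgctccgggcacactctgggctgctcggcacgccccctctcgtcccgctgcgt
Cdkn1b, chr6:134870169-134870418, plus strand: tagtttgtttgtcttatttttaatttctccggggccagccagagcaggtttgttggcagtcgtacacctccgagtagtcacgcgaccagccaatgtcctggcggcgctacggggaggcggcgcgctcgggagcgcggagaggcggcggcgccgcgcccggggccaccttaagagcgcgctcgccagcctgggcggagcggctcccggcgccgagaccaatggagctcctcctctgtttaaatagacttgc
The E-box of Cdk6 begins at -220 bp, and the letters CACGTG occurred in no other member's 250 bases and in 6.59% of all promoters of that length. The CTCF core and the STAT motif TTCNNNGAA, searched on both strands, were in none of the members' promoters, against 2.2% and 6.8% of all promoters. The members' promoters were rich in G and C, at 59.6% (Ccnd3) to 78.4% (Cdkn2a), against a median of 54.8%.

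At the starts, 5 of the 6 members had a RAD21 peak within 5 kb in all 10 RAD21 lists, beside 23.2% of all protein-coding genes. Ccnd3 was the exception and lacked such a peak in Ig2b wild-type replicate 3 alone. All 6 had a NIPBL peak in all 4 NIPBL lists, beside 51.4% of all genes, and 5 of the 6 met both conditions, beside 18.5%. With peaks of −log10 q of at least 3 only, Cdkn2a, Cdkn1b and Ccnd3 no longer had RAD21 in every list, which left 3 of 6 members, beside 13.9% of all genes. NIPBL remained at all 6 starts, beside 32.8%, and 3 members had both, beside 7.31%. Within 2.5 kb of the start, 4 members had RAD21 in every list, beside 15.6%, and Cdkn1b and Ccnd3 did not, while all 6 had NIPBL, beside 47.8%, and 4 had both, beside 12.8%.

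**Figure D1:**
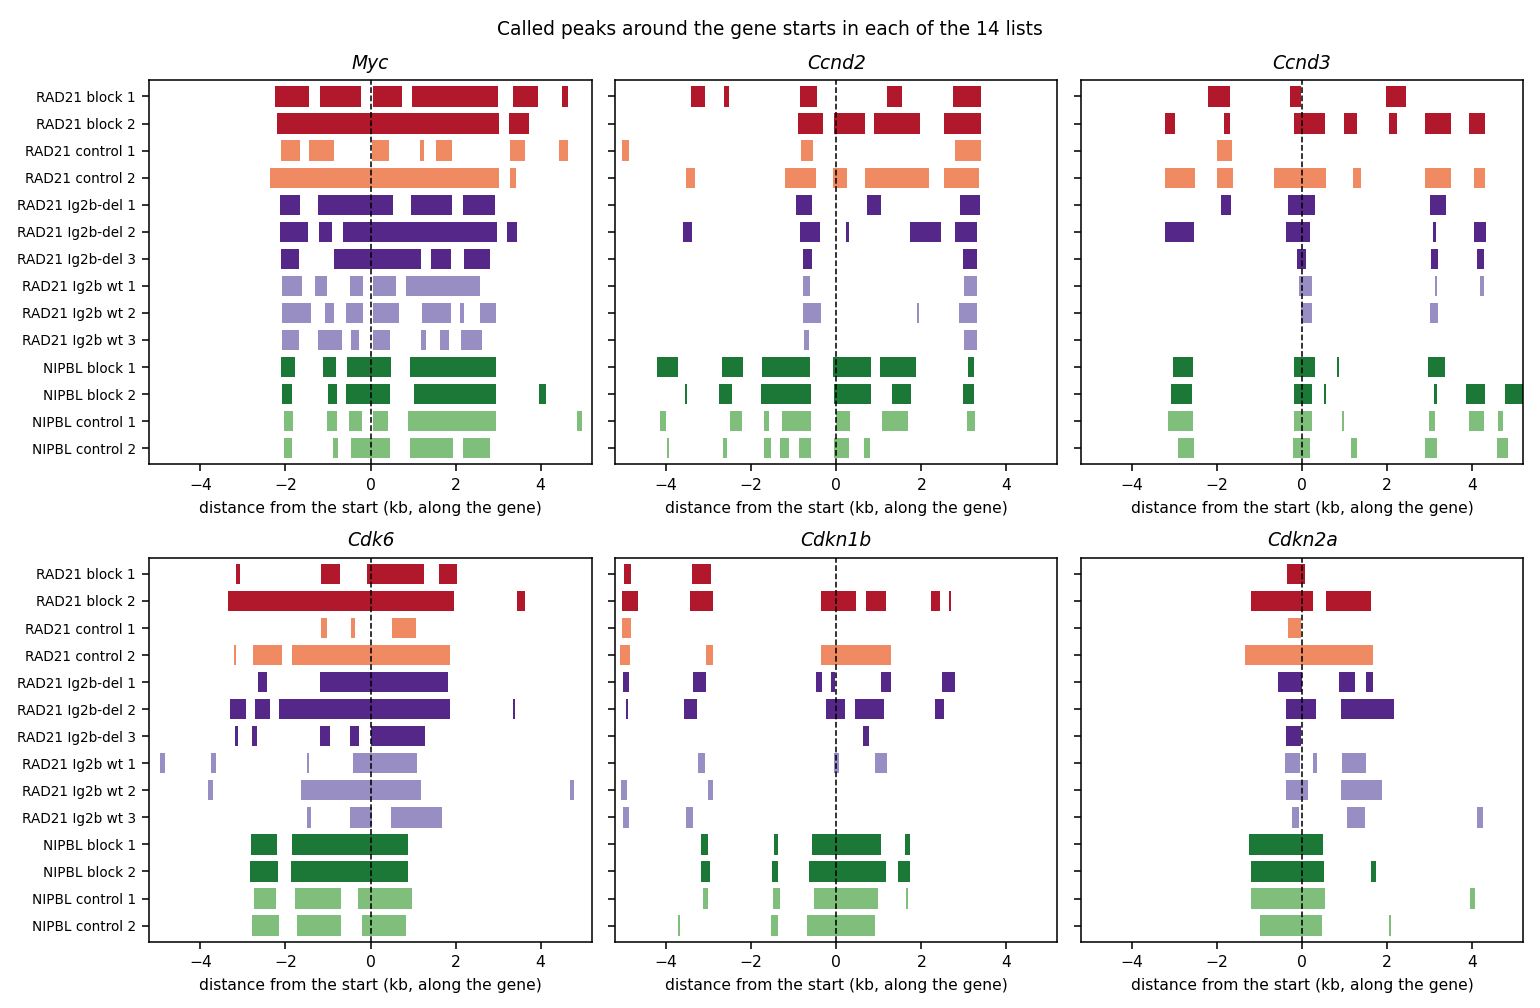
Peaks called in each of the 14 lists (rows) against distance from the member's start in kb along the gene (horizontal axis); each bar is 1 called peak and the dashed line is the start. The RAD21 peaks of all lists together span a broad domain over Myc and Cdk6, which single lists cover with 1 wide peak or with several narrower ones. RAD21 forms a narrow peak about 3 kb inside Ccnd2 and lies over the Cdkn1b start in 4 of 10 lists, whereas NIPBL lies over the starts of all members but Myc in all 4 lists.

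Myc, Cdk6 and Ccnd2 led in that order for both proteins, while the order of Cdkn2a, Ccnd3 and Cdkn1b differed. By median coverage within 5 kb of the start, RAD21 gave Myc 3770 bp, Cdk6 2670 bp, Ccnd2 1086.5 bp, Cdkn2a 1048.5 bp, Ccnd3 857.5 bp and Cdkn1b 568 bp over 10 lists. NIPBL gave Myc 3435 bp, Cdk6 3109.5 bp, Ccnd2 2761 bp, Cdkn1b 1945 bp, Cdkn2a 1781.5 bp and Ccnd3 1550.5 bp over 4 lists. Myc was the most covered member in 9 of 10 RAD21 lists and in 3 of 4 NIPBL lists. Neighbours lower in the order were not separated by their spread over lists: Ccnd2 exceeded Cdkn2a in 7 of 10 RAD21 lists, Cdkn2a exceeded Ccnd3 in 4 and Ccnd3 exceeded Cdkn1b in 7. Among all protein-coding genes, Myc stood at the 99.7th to 99.9th percentile of RAD21 start coverage in every RAD21 list. Cdk6 stood between the 96.4th and 99.7th, and Cdkn1b between the 70.4th and 97th.

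**Figure D2:**
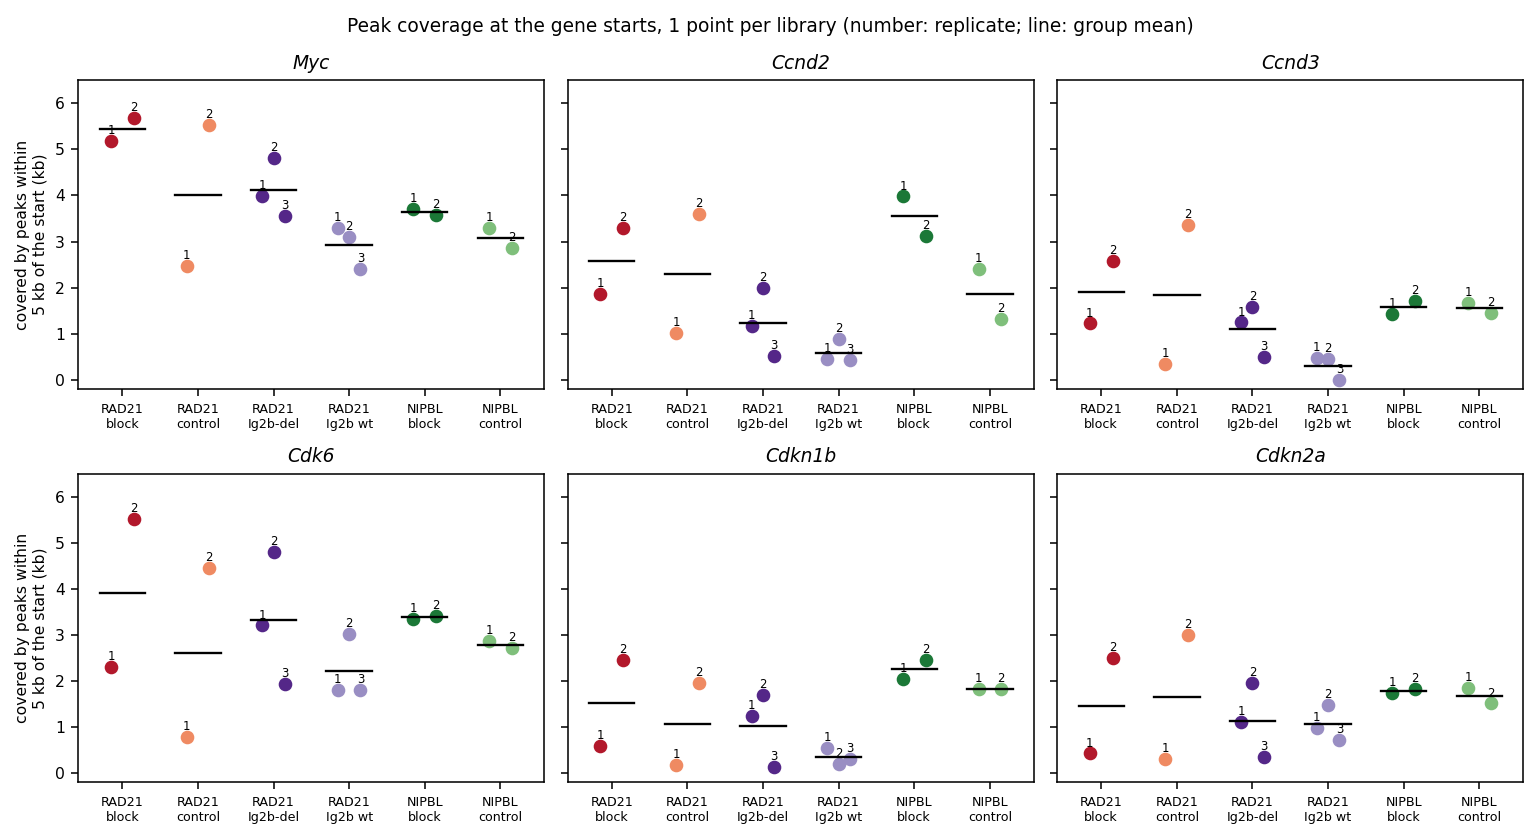
Coverage by called peaks within 5 kb of the start (vertical axis, kb) for each member by group; each point is 1 library, labelled with its replicate number, and the line is the group mean. RAD21 coverage of the block and control groups parts by replicate number more than by group (Ccnd3: 1222 and 2583 bp with block, 341 and 3354 bp in control), while NIPBL values lie closer together.

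Myc, the transcription factor that drives growth and the D cyclins (chr15:61816946-61821929, plus strand), had the highest median RAD21 coverage of the members at its start. Its widest single RAD21 peak there had a median of 1904.5 bp over the lists, which was below the median for Cdk6. RAD21 covered 5184 and 5691 bp in block libraries, against 2467 and 5540 bp in controls. It covered 3986, 4809 and 3554 bp in Ig2b-deleted libraries, against 3286, 3093 and 2396 bp in wild type. The deleted and wild-type libraries did not overlap, and the block libraries were level with control replicate 2. NIPBL covered 3700 and 3583 bp with block, against 3287 and 2867 bp in control. The RAD21 peaks of the 10 lists merged into a single constant region, chr15:61814574-61819975, that holds the start and the upstream CTCF core and ends short of the last exon. Its highest fold was 7.12 to 14.2 over the lists with a median of 9.17, and the fold is the authors' own value for a peak over its background, with no common scale between lists. A single peak spanned this merged domain only in control replicate 2 (5385 bp) and block replicate 2 (5232 bp). In the other lists the highest fold belonged to a separate upstream peak over the CTCF core. That peak was 407 bp (Ig2b-deleted replicate 3) to 788 bp (block replicate 1) wide. RAD21 lay under 24.2% to 70% of the gene body. Inside this domain NIPBL had 4 constant regions, and each overlapped RAD21 in all 10 lists. A peak lay directly over the start used here in all 3 deleted libraries and in none of the wild-type libraries, whose nearest peaks were 54 to 69 bp away. This depended on the start used, since every library of both groups had a peak over the annotated starts 173 and 231 bp downstream. The share of all genes with such a contrast was not counted. The merged domain was the sole constant RAD21 region among 18 regions within 100 kb of Myc (5.56%, beside 16.5% over the genome). The other 17 were missing from at least 1 list. This share depended on the lists used. Without the RAD21 dCas9 lists of replicate number 1 it was 1 of 8 (12.5%, beside 22.2%). With peaks of −log10 q of at least 3 it was 1 of 5 (20%, beside 24.2%). CTCF was originally described as a protein that binds near the chicken c-myc gene, and the mouse core shown above sits under the upstream edge of this domain.

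Ccnd2, encoding cyclin D2 (chr6:127075797-127101066, minus strand), combined a sharp intronic cohesin peak with NIPBL at the promoter. RAD21 covered 1859 and 3287 bp of the start window with block, against 1007 and 3606 bp in control, and 1166, 1988 and 521 bp in Ig2b-deleted libraries, against 447, 890 and 435 bp in wild type. These groups overlapped. NIPBL covered 3979 and 3123 bp with block, against 2399 and 1315 bp in control, and there the groups did not overlap. The constant RAD21 region chr6:127097661-127098542, whose near edge is 2524 bp inside the gene, had a fold of 10.8 to 18.8 with a median of 15. It was at most 877 bp wide in a list, and it contains the intronic core shown above. NIPBL had a peak there in 3 of 4 lists, with at most 254 bp. NIPBL instead lay over the start (chr6:127100257-127101143) and just upstream (chr6:127101652-127102837) in every list. RAD21 was found in all 10 lists at the upstream of these. It was called in 4 within the region at the start, and in 2 of 10 lists a RAD21 peak lay over the start itself.

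Ccnd3, encoding cyclin D3 (chr17:47642000-47736632, plus strand), has annotated starts at both ends of the locus, the second 88416 bp downstream of the one used here. At the upstream start RAD21 covered 1222 and 2583 bp with block, against 341 and 3354 bp in control. It covered 1244, 1581 and 493 bp in Ig2b-deleted libraries, against 467, 444 and 0 bp in wild type. The deleted libraries were all above the wild-type libraries, and replicate 3 was the lowest of both groups. NIPBL covered 1436 and 1703 bp with block, against 1660 and 1441 bp in control, so the groups overlapped. The same window holds the start of Taf8 at -2764 bp, where NIPBL also had a constant region at -2535 bp. Around the downstream start NIPBL covered more, 3237 and 2819 bp with block, against 2583 and 2098 bp in control, and RAD21 covered 481 to 4568 bp over its 10 lists. Ccnd3 had the most constant regions of the members by count, 14 of 63 for RAD21 (22.2%) and 19 of 81 for NIPBL (23.5%). Over the genome the shares were 16.5% and 9.95%. By share Cdkn1b was higher than Ccnd3, at 25.7% for RAD21 and 28.6% for NIPBL, and the windows differ in length between members. The RAD21 region at -22237 bp (chr17:47618999-47619763), outside any gene, had a fold of 8.45 to 17.1 and holds the core shown above. A second strong region, chr17:47647927-47649506 in an intron, had a fold of 7.42 to 14.6 and was shared with NIPBL in all 4 lists.

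Cdk6, the kinase partner of the D cyclins (chr5:3343893-3523218, plus strand), had a broad domain of both proteins at the start and sharp RAD21 peaks near its far end. RAD21 covered 2312 and 5522 bp at the start with block, against 790 and 4448 bp in control, and 3207, 4809 and 1932 bp in Ig2b-deleted libraries, against 1806, 3028 and 1813 bp in wild type. NIPBL covered 3353 and 3405 bp with block, against 2866 and 2713 bp in control. The RAD21 groups overlapped and the NIPBL groups did not. The RAD21 domain chr5:3340530-3345933 had a fold of 5.32 to 8.08, and NIPBL covered at least 2713 bp of it in each list. This domain merges all lists, and the widest single RAD21 peak within 5 kb of the start was 558 to 5339 bp by list. RAD21 was found in 6 further constant regions in the gene body. The 3 nearest the end of the gene lay in introns between 167606 and 172461 bp from the start, and none of the 4 NIPBL lists had a peak in them. The last, chr5:3516354-3517336, had a fold of 7.59 to 16.4 with a median of 12.8, was at most 983 bp wide and held no match to either form of the core, CCANNAGNNGGC or the looser CCNNNAGNNGGC. Beyond the gene, NIPBL had a constant region at 199737 bp (fold 5.11 to 11.6), in which RAD21 was called in 9 of 10 lists.

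Cdkn1b, encoding p27Kip1 (chr6:134870419-134875531, plus strand), had the lowest median RAD21 coverage of the members at its start and strong cohesin peaks on both sides. It was the least covered member in 5 of 10 RAD21 lists. RAD21 covered 591 and 2450 bp with block, against 173 and 1961 bp in control, and 1242, 1701 and 136 bp in Ig2b-deleted libraries, against 545, 197 and 312 bp in wild type. Its highest start fold was 3.52 to 5.61, and peaks lay over the start itself in 4 of 10 lists. NIPBL covered 2052 and 2451 bp with block, against 1838 and 1820 bp in control, and lay over the start in all 4 lists. The NIPBL region over the start, chr6:134869727-134871598, had a fold of 6.17 to 8.98, and RAD21 was called in 6 of 10 lists somewhere within it. None of the 9 constant RAD21 regions lay within 5 kb of the start or in the gene. Those at -91711, -56832, -46687 and 26618 bp had median folds of 8.61, 9.26, 10.3 and 9.23, and NIPBL was not called at 3 of these 4 and called in 1 list at -56832 bp. NIPBL had its own constant regions at -21608, 6305 and 7685 bp, with RAD21 in 8, 6 and 4 of 10 lists.

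Cdkn2a (chr4:88920377-88940557, minus strand) was covered at both annotated groups of starts by both proteins. At the upstream start, from which Arf is transcribed, RAD21 covered 428 and 2498 bp with block, against 314 and 3003 bp in control, and 1118, 1950 and 357 bp in Ig2b-deleted libraries, against 979, 1472 and 731 bp in wild type. NIPBL covered 1738 and 1825 bp with block, against 1848 and 1513 bp in control. The groups overlapped in each of the 3 comparisons. The constant RAD21 region there, chr4:88938358-88941861, had a fold of 3.99 to 6.32, and the constant NIPBL region chr4:88939995-88941773 had a fold of 6.03 to 9.34. At the start 12427 bp downstream, from which p16Ink4a is transcribed, RAD21 (chr4:88927086-88929127) had a fold of 5.18 to 10.2 and NIPBL (chr4:88927825-88928752) one of 4.98 to 10.01. The start of the neighbouring inhibitor gene Cdkn2b carried a pair of such regions too, chr4:88955817-88957517 for RAD21 and chr4:88956308-88957242 for NIPBL. None of these 3 RAD21 regions held the core CCANNAGNNGGC. The 2 RAD21 regions that stood farthest from the gene, at -79824 and 60981 bp, had no NIPBL peak in any list.

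**Figure D3:**
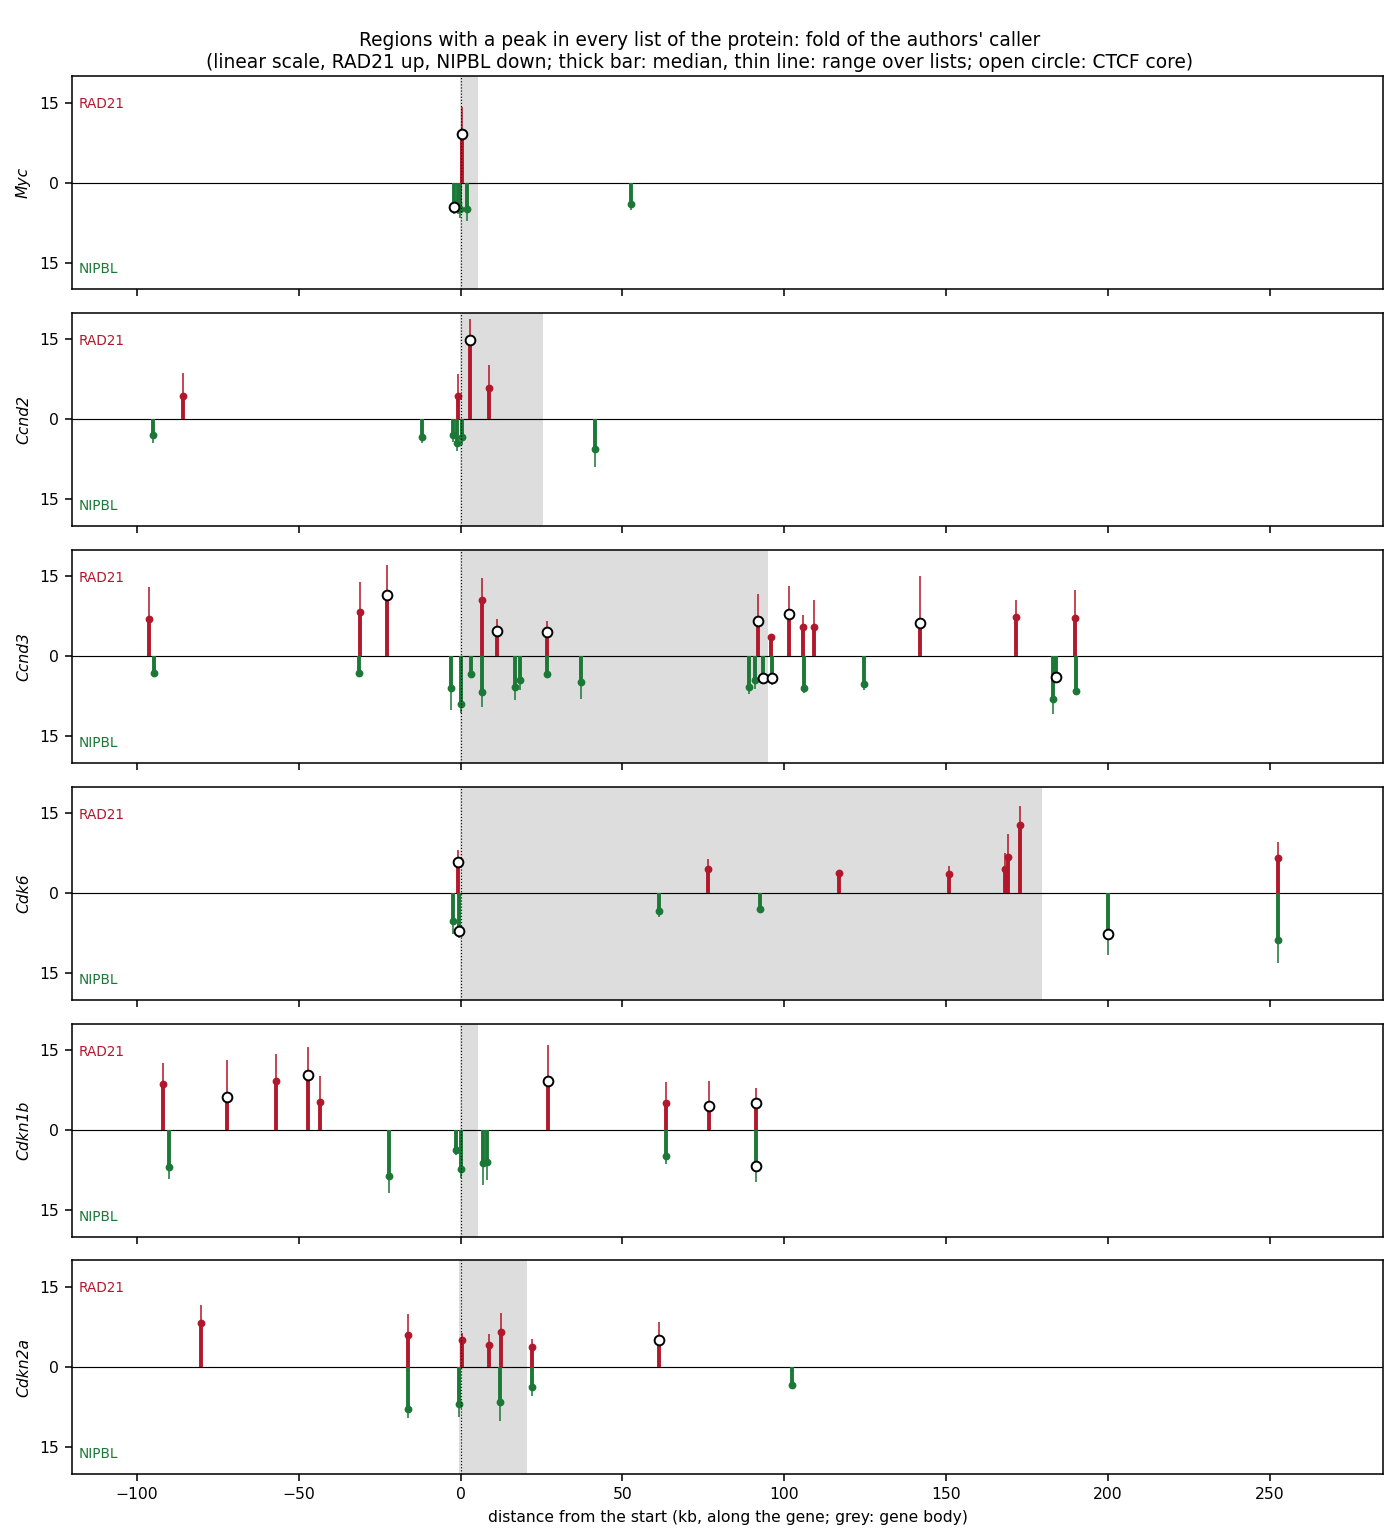
Regions with a peak in all 10 RAD21 lists (up) or all 4 NIPBL lists (down) against distance from the start in kb; bars give the median of the highest fold of each list on a linear scale, thin lines the range, grey the gene body and open circles regions with a CTCF core. Myc has 1 RAD21 region with NIPBL inside it, and Cdkn1b has 9 RAD21 regions, all outside the gene, with NIPBL over its start.

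Within 100 kb of the members, 43 of 243 RAD21 regions (17.7%) had a peak in all 10 lists, beside 16.5% over the genome. For NIPBL, 49 of 259 regions (18.9%) had a peak in all 4 lists, beside 9.95%. Of the 43 constant RAD21 regions, 18 had a NIPBL peak in all 4 lists, 8 in some and 17 in none. A constant NIPBL region overlapped 17 of the 43, and over the genome a constant NIPBL region overlapped 17.4% of the 25633 constant RAD21 regions. The members' windows are centred on genes, and this was not matched in the genome-wide share.

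The CTCF core was in 15 of the members' 43 constant RAD21 regions (34.9%) and in 7 of their 49 constant NIPBL regions (14.3%). Over the genome the shares were 43.3% and 7.82%, with mean widths of 882.3 and 816.8 bp, and 11.5% in RAD21 regions missing from at least 1 list, whose mean width was 261.5 bp. Constant RAD21 regions that overlapped constant NIPBL regions held the core in 5 of 17 cases near the members and in 29.8% over the genome. Those that overlapped no constant NIPBL region held it in 10 of 26 cases and in 46.1%, a difference that was not tested. Some of the 26 still had NIPBL peaks, such as the Cdk6 region at 150138 bp, with a peak in all 4 NIPBL lists. Ccnd3 held 6 of the 15 regions and Cdkn1b 5, while Myc, Ccnd2, Cdk6 and Cdkn2a held 1 each. In 6 of the 15 the core continued as CCANNAGAGGGCNNCAGAT, an extension searched after the sequences were seen, which was found in 16.6% of the 11087 core-bearing constant regions of the genome. Those 6 were 3 at Cdkn1b, 2 at Ccnd3 and 1 at Cdkn2a. The Cdkn1b sequences at -47139 and 76742 bp shown above were identical at 54 of 60 bases, flanks included, although they lie on opposite sides of the gene. The Ccnd3 region at 141516 bp held a pair of cores whose 60 bases were identical at 58. Mouse B2 repeats are known to carry CTCF motifs, but repeats were not annotated here.

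Of 30 other genes of G1 and S entry, 13 had RAD21 at the start in all 10 lists, beside 23.2% of all genes. Ccne1 had it in none, while all 30 had NIPBL in all 4 lists, beside 51.4% of all genes. Their median start coverage was 293.25 bp for RAD21 and 1289.5 bp for NIPBL, against 0 and 258.5 bp over all genes. The highest RAD21 medians were those of Foxo1 (2168 bp), a transcription factor that activates Cdkn1b, Ccnd1 (1178.5 bp), the remaining D cyclin, and Cdkn2b (1066 bp). The highest NIPBL medians were those of the Myc antagonist Mxi1 (3295.5 bp), of Foxo3 (3073 bp) and of Foxo1 (2673 bp). Myc and Cdk6 exceeded the RAD21 medians of all 30, and no other member did so.

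The genes most like each member were those with the smallest Euclidean distance in log2 of start coverage plus 500 bp over the 14 lists. They were Cux1 (0.84) and Hmgb1 (0.96) for Myc, Socs2 (0.95) and Lyl1 (0.95) for Cdk6, and Vegfa (0.99) and Sart3 (1.08) for Ccnd2. Ccnd3 was nearest to Csk (0.99) and Picalm (1.07), Cdkn1b to Ipmk (0.92) and Ints6 (0.95), and Cdkn2a to Lamc1 (0.62) and Otud1 (1.02). The median distance to all genes was 10.3 for Myc and 5.36 for Cdkn1b, the highest and lowest of the 6.

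The block was compared with its control to ask whether dCas9 with Sg1-sgRNA changed RAD21 around these genes. With replicate number left out of the fit, no member differed beyond the spread between libraries, and no other gene was called. limma called 0% of 11302 genes at starts and 0% of 20853 genes over gene body and 100 kb flanks at an adjusted p under 0.05. At an unadjusted p under 0.05 there were 0 and 1. With replicate number as a block there were 358 and 174, and 1 locus, not a member, passed the adjusted limma test. The members' log2 differences of coverage at starts ranged from -0.02 ± 0.95 (SE) for Cdkn2a to 0.70 ± 0.81 for Cdk6, beside a median of 0.07 over all genes tested. Within replicate number 1 all 6 starts were more covered with block, Myc by 2717 bp, while within number 2 Ccnd2, Ccnd3 and Cdkn2a were less covered with block, by -319, -771 and -505 bp. Myc was 151 bp more covered with block within number 2. The contrast of block with control thus took opposite signs within the 2 numbers at 3 of the 6 starts.

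The same comparison for NIPBL gave higher values with block at several members, none of which passed the adjusted test. limma called 0% of 13702 genes at starts and 0% of 22248 over loci, with 1549 and 1245 at an unadjusted p under 0.05. Ccnd2 had the largest difference, with 3551 ± 605 bp with block and 1857 ± 767 bp in control (SD, n = 2 each), a log2 difference of 0.81 ± 0.28 (SE) and a limma adjusted p of 0.431. The difference was 1.15 without control replicate 1 and 0.475 without control replicate 2. Libraries did not overlap at the starts of Myc, Ccnd2, Cdk6 and Cdkn1b, all higher with block, beside 41.8% of all genes tested that were higher without overlap. Ccnd3 differed by 0.01 ± 0.15 and Cdkn2a by 0.07 ± 0.14. Over loci the groups did not overlap at Ccnd2, Ccnd3, Cdk6 and Cdkn1b, again higher with block, beside 36.9% of genes. The median difference of all genes tested was 0.16 at starts and 0.22 over loci. The whole lists covered 20.329 and 29.796 Mb with block, against 22.515 and 21.643 Mb in control, so they overlapped. Under quantile normalization, which evens out the lists, 5 of the 6 start differences turned negative (-0.205 to -0.009) and Ccnd2 alone stayed positive.

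The deletion of Ig2b was set against wild type for RAD21 in 3 libraries each. limma called 0% of 8635 genes at starts and 0% of 19983 over loci, with 789 and 1238 at an unadjusted p under 0.05. With replicate number as a block, 1673 and 6760 reached that level, and 2 loci, no member among them, passed the adjusted limma test. Myc had 4116 ± 638 bp in deleted libraries and 2925 ± 468 bp in wild type (SD, n = 3 each), a log2 difference of 0.43 ± 0.17 (SE) with a limma adjusted p of 0.533. Ccnd3 had 1106 ± 557 bp in deleted libraries and 304 ± 263 bp in wild type, a difference of 0.99 ± 0.38 with a limma adjusted p of 0.532. These were the members whose groups did not overlap at starts, beside 14.5% of genes that were higher without overlap. The median over all genes tested was 0.24 at starts and 0.32 over loci, and deleted replicate 2 alone covered 25.113 Mb of the genome. Cdkn2a differed least, by -0.03 ± 0.40 at its start. Without deleted replicate 3, the list with the fewest peaks, limma called 5734 of 20066 loci (28.6%), 5709 of them higher and with a median difference of 0.53 over all tested. Among them were Ccnd3 (0.89, adjusted p = 0.029), Cdk6 (0.84, adjusted p = 0.0334) and Cdkn1b (1.11, adjusted p = 0.0236).

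**Figure D4:**
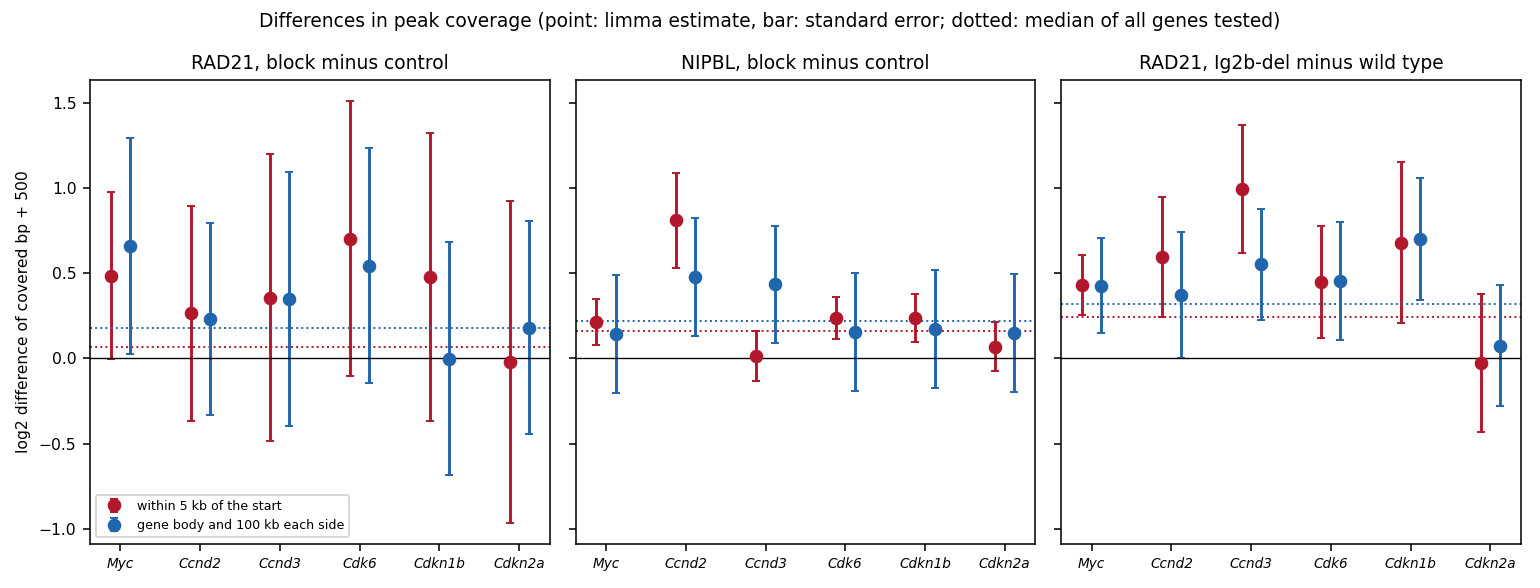
Log2 difference of coverage plus 500 bp for each member in the 3 comparisons (points: limma estimates; bars: standard errors), at starts and over gene body and 100 kb flanks; dotted lines are the medians of all genes tested. None of the 36 differences passed the adjusted test; NIPBL at the Ccnd2 start (0.81) and RAD21 at the Ccnd3 start after Ig2b deletion (0.99) lie farthest above the medians.

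Of the 30 other G1 and S entry genes, 0 passed the limma test in any of the 6 fits. At an unadjusted p under 0.05, which was looked at afterwards, NIPBL block gave 1 of 30 (E2f1) at starts and 1 of 30 (E2f1) over loci, beside 11.3% and 5.6% of all genes tested. Ig2b deletion gave 2 of 21 (Mxd4 and Ccnd1) at starts and 3 of 30 (Foxo1, Ccnd1 and Mnt) over loci, beside 9.14% and 6.2%. RAD21 block gave none. The median log2 difference of the 30 at starts was 0.08 for RAD21 block, 0.22 for NIPBL block and 0.34 for RAD21 after Ig2b deletion, against 0.07, 0.16 and 0.24 over all genes tested.

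Regions called in every library of one group and in none of the other were few near the members. RAD21 block gained 2 of 226 regions, beside 1.15% of 127860 over the genome, and lost 1, beside 0.278%. The gained ones lay at 1975 bp inside Ccnd3 (chr17:47643975-47644434, 460 and 203 bp, fold 3.28 and 3.9) and at 267929 bp from the Cdk6 start. NIPBL block gained 7 of 259, beside 2.48% of 238985, and lost 2, beside 1.65%, and none of these 9 lay within 5 kb of a member's start. RAD21 after Ig2b deletion gained 4 of 183, beside 0.931% of 105335, and lost 0, beside 0.191%. Of these 4, chr5:3341111-3341536 lay at -2357 bp of Cdk6, with 205, 372 and 105 bp in the deleted libraries. Another, chr17:47730080-47731752, covered the downstream start of Ccnd3 with 484, 1363 and 140 bp. All the gained and lost regions near members had folds of 2.69 to 4.44.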

How the data were processed

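RAD21 and NIPBL were immunoprecipitated with 5 ug of antibody from cells fixed in 1% formaldehyde, per the labels. The submitters' processing notes name Bowtie2 2.2.8, SAMtools 1.8, MACS2 and the mm9 build, without their roles; the version and settings of MACS2 were not given in the sources used here. Each deposited list has 9 columns and 1 library. Peak folds are a ratio over background from the authors' caller, and the deposited −log10 p and −log10 q values are the caller's too. Per the peak names, the block and control lists were called against a control library, whereas the Ig2b lists name none and had duplicates removed. Folds are therefore not on 1 scale between lists, and their ranges and medians over lists only describe a region.

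Gene starts (the transcript with the longest coding sequence) and sequences came from NCBIM37 (mm9) with GENCODE vM1; the peaks of all 22 chromosomes named in the lists end within its chromosomes. Coverage was the union of a list's peaks. Genes with a mean of at least 100 bp were tested with limma 3.58.1 in R 4.3.3 on log2 of coverage plus 500 bp, with no normalization between lists, two-sided, Benjamini-Hochberg adjusted over all genes tested. The fit was also run on simulated data with independent noise of equal size for all genes. Same-numbered libraries did not deviate together there, so that run does not bear on how replicate number affects the fit. Regions were peaks merged where they overlapped by 1 bp, gained or lost when all libraries of a group had a peak there and no library of its counterpart did, and constant when called in every list of a protein. Other steps used Python 3.11.15, numpy 2.4.6, pandas 2.3.3 and matplotlib 3.10.9. The genes named were the 6 members, the 2 genes nearest each, and, of the 30 other genes, the top 3 per protein. The members and lists were chosen with earlier results of these data known. Settings varied are given under the closing section.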

Additional observations from a re-analysis of the deposited data

How the results depend on the processing

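The 36 member differences were recomputed in 436 ways; 375 kept their direction and their side of the threshold, 58 changed direction without passing it, and 3, all without Ig2b-deleted replicate 3, passed it. Where direction changed, the cause was not tested. Peaks of −log10 q of at least 3 turned the RAD21 block log2 difference to -0.094 for Ccnd2 and -0.354 for Ccnd3 at starts, to -0.305 for Ccnd2, -0.064 for Ccnd3 and 0.081 for Cdkn1b over loci, and that of Ig2b deletion to 0.707 for the Cdkn2a start. Lists of equal length (58912, 63153 and 44783 peaks) gave, for RAD21 block, -0.005 for Ccnd2, -0.056 for Ccnd3 and -0.247 for Cdkn1b at starts and -0.103 for Cdkn2a over the locus, and for Ig2b deletion -0.068 for the Cdkn2a locus. Adding 100 bp gave RAD21 block 0.047 for the Cdkn2a start and 0.005 for the Cdkn1b locus. Windows of 2.5 kb gave -0.049 for RAD21 block at Cdkn1b and 0.028 for Ig2b deletion at Cdkn2a, flanks of 50 kb gave RAD21 block 0.196 for the Cdkn1b locus, and every annotated start gave Cdkn2a -0.036 for NIPBL block and 0.07 for Ig2b deletion. Quantile normalization gave NIPBL block -0.051 for Myc, -0.205 for Ccnd3, -0.038 for Cdk6, -0.009 for Cdkn1b and -0.155 for Cdkn2a at starts. Over loci it gave NIPBL block -0.127 for Myc, -0.01 for Ccnd3, -0.217 for Cdk6, -0.204 for Cdkn1b and -0.157 for Cdkn2a, RAD21 block -0.031 for Cdkn2a, and Ig2b deletion -0.002 for Cdk6 and -0.384 for Cdkn2a.

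Leaving out 1 library at a time, RAD21 block differences at starts ranged from -0.026 to 1.0 for Myc, -0.458 to 0.988 for Ccnd2, -0.742 to 1.454 for Ccnd3, -0.266 to 1.674 for Cdk6, -0.456 to 1.415 for Cdkn1b and -1.07 to 1.035 for Cdkn2a. Over loci they ranged from -0.092 to 1.415 for Myc, -0.19 to 0.653 for Ccnd2, -0.701 to 1.403 for Ccnd3, -0.323 to 1.412 for Cdk6, -0.781 to 0.779 for Cdkn1b and -0.499 to 0.862 for Cdkn2a. For NIPBL block the ranges that crossed 0 were -0.081 to 0.106 for Ccnd3 and -0.042 to 0.18 for Cdkn2a at starts and -0.057 to 0.342 for the Myc locus, and for Ig2b deletion they were -0.379 to 0.379 for the Cdkn2a start and -0.242 to 0.528 for its locus. A lone library was then assumed to vary like the other group.

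Counts of genes called by limma, 0 in all 6 fits as reported, became 171 for NIPBL block starts and 121 and 18 for Ig2b deletion starts and loci with −log10 q of at least 3. Lists of equal length gave 1 and 77 for Ig2b deletion starts and loci, no filter gave 6 starts, 100 bp added gave 4 loci and quantile normalization 169 loci. Leaving out a library gave 0 to 1 for RAD21 block loci, 0 to 321 for NIPBL block loci and 0 to 5734 for Ig2b deletion loci. With replicate number as a block, limma called 1 locus for RAD21 block, 2 for Ig2b deletion and 0 in the other 4 fits. No member was among them. An unadjusted p under 0.05 was then reached by 358 starts and 174 loci for RAD21 block, against 0 and 1 without the block. For Ig2b deletion it was reached by 1673 starts (19.4%) and 6760 loci (33.8%), 6542 of these loci higher, against 789 and 1238. For NIPBL block the counts fell to 1159 and 774, against 1549 and 1245. Same-numbered libraries deviated together for RAD21 dCas9 (correlation 0.725 at starts, 0.859 over loci), less so for NIPBL (-0.013 and 0.176) and Ig2b (0.024, 0.175 and 0.228 at starts). No label ties the numbers to a batch, also not for Ig2b with its 3 libraries a group, and RAD21 dCas9 has only 2 pairs. The block was therefore kept as an alternative in every comparison.

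Regions gained near members numbered 1 for RAD21 block, 1 for NIPBL block and 0 for Ig2b deletion with −log10 q of at least 3, and regions lost numbered 0 for both blocks. With 50% overlap, NIPBL block gained 3 and lost 5, RAD21 block lost 0 and Ig2b deletion gained 1. Lists of equal length gave 1, 4 and 1 gained for RAD21 block, NIPBL block and Ig2b deletion, and 0 lost for NIPBL block. Leaving out a library gave 6 to 34 gained and 1 to 28 lost for RAD21 block, 11 to 75 gained and 5 to 42 lost for NIPBL block, and 0 to 1 lost for Ig2b deletion. Constant regions numbered 23 for RAD21 and 30 for NIPBL with −log10 q of at least 3, where 3 members had RAD21 at the start in every list and 3 had both proteins. Precision is limited by 2 or 3 libraries a group and by unknown read depth.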
